A study of Homo sapiens with 14 samples.

Results

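Ribonucleotide reductase and the enzymes that supply or limit dNTPs, the 4 building blocks of DNA, were followed as 9 genes (RRM1, RRM2, TYMS, TK1, DTYMK, DUT, DCTPP1, DCK and SAMHD1) in 2 human multiple myeloma lines, MM1.S and H929. The 9 genes were taken by symbol from the deposited expression tables of both lines, in which each symbol matched 1 row, out of 58051 genes in all. The study knocked down ZBP1, which binds left-handed (Z-form) RNA and DNA and can start necroptosis, and sequenced poly(A)-selected RNA. Its 14 libraries form 7 groups of 2. In MM1.S these are shRNA1 against ZBP1, shRNA2 against ZBP1, and 1 scramble control that serves both hairpins. In H929 these are shRNA1 with a scramble control of its own and shRNA2 with another scramble control of its own. All cells, controls included, were transduced with lentivirus. The labels give no time after transduction, no selection step and no source culture for the libraries of a group, so every p-value here reflects library-to-library spread that may be technical only.

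Ribonucleotide reductase converts ribonucleotides to deoxyribonucleotides and is the rate-limiting step of dNTP synthesis. It pairs a large subunit that is present through the cell cycle (RRM1) with a small subunit that accumulates in S phase and is destroyed afterwards (RRM2); RRM2B is an alternative small subunit that p53 induces. Thymidine nucleotides come from thymidylate synthase (TYMS) or from salvage of thymidine (TK1 in the cytosol, TK2 in mitochondria), and dNTP levels are lowered by hydrolases such as SAMHD1.

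The libraries held 20.46 to 28.42 M reads in genes in MM1.S and 15.93 to 22.25 M in H929. Plasma cell markers were present in every group (9 of 9 genes, 4094 to 8469 CPM summed, where CPM is a gene's reads scaled to a common total of reads in genes). They were lower in part with each hairpin: 5 of 9 lower and 1 higher with MM1.S shRNA1, 9 lower with MM1.S shRNA2, 6 lower and 3 higher with H929 shRNA1 and 5 lower with H929 shRNA2 (medians -0.69, -0.99, -0.49 and -0.57). In the same order 19.7%, 21.7%, 27.7% and 25.0% of all genes were lower and 17.8%, 14.9%, 25.7% and 18.0% higher. Summed, the plasma cell markers gave 5292 to 5702 and 4094 to 4312 CPM in MM1.S shRNA1 and shRNA2 and 6786 to 7298 CPM with scramble. In H929 they gave 7181 to 7313 CPM with shRNA1 and 8206 to 8226 CPM in its scramble, and 7464 to 7659 CPM with shRNA2 and 8388 to 8469 CPM in its scramble. ZBP1 was left at 18.5% (shRNA1) and 12.4% (shRNA2) of the scramble mean in MM1.S, and at 45.1% and 36.3% of each hairpin's own scramble mean in H929. The 2 H929 scramble groups stood apart from each other in most of the 9 genes, which touches every H929 result below. Markers of other cell types moved in single genes. COL1A1 averaged 32.1 ± 3.84 CPM in H929 shRNA1 and 0.963 ± 0.146 CPM in its scramble (SD, n = 2), with the other 2 fibroblast markers, COL1A2 and DCN, averaging under 1 CPM in both groups. ITGAM averaged 21.2 ± 3.09 CPM in MM1.S shRNA1 and 1.18 ± 0.626 CPM with scramble, with the other 3 myeloid markers under 1 CPM. Summed, the 3 fibroblast markers gave 29.4 to 34.9 CPM in H929 shRNA1 and 0.975 to 1.30 CPM in its scramble, and the 4 myeloid markers 19.6 to 24.1 CPM in MM1.S shRNA1 and 1.28 to 2.39 CPM with scramble. The 3 T cell markers, nearly all CD3E, summed to 24.0 to 31.3 CPM in H929 shRNA2 and 6.89 to 7.66 CPM in its scramble, and the 4 epithelial markers, mostly KRT18, to 26.4 to 28.4 CPM in H929 shRNA1 and 14.3 to 16.9 CPM in its scramble. Mitochondrial genes took 11.6% to 12.1% of reads with the MM1.S hairpins and 9.87% to 10.2% with scramble, 5.98% to 6.34% with H929 shRNA1 and 6.63% to 7.22% in its scramble, and 8.72% to 8.80% with H929 shRNA2 and 6.84% to 7.12% in its scramble. The part of these in the results was not tested.

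With each hairpin in each line, 8 of the 9 genes were lower than in scramble cells, and SAMHD1 did not pass the test (Benjamini-Hochberg adjusted p under 0.05, edgeR in MM1.S and limma in H929). Of all genes tested, 19.7% were lower with MM1.S shRNA1 and 17.8% higher; 21.7% were lower with MM1.S shRNA2 and 14.9% higher. In H929, 27.7% were lower and 25.7% higher with shRNA1, and 25.0% lower and 18.0% higher with shRNA2. The median log2 fold change of the 9 genes was -1.89 and -1.24 (MM1.S shRNA1 and shRNA2) and -1.36 and -1.08 (H929 shRNA1 and shRNA2), where the median of all genes tested was between -0.03 and 0.00. The 2 MM1.S comparisons share their scramble libraries, so they are not independent of each other. Reads of the 9 genes summed to 411 and 452 CPM in the MM1.S shRNA1 libraries, 560 and 573 CPM in the shRNA2 libraries and 1838 and 1721 CPM in the scramble libraries. In H929 the sums were 193 and 236 CPM with shRNA1 and 489 and 452 CPM in its scramble, and 407 and 428 CPM with shRNA2 and 936 and 930 CPM in its scramble. In bulk RNA, fewer cells that express a gene and less RNA per cell cannot be told apart.

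**Figure D1:**
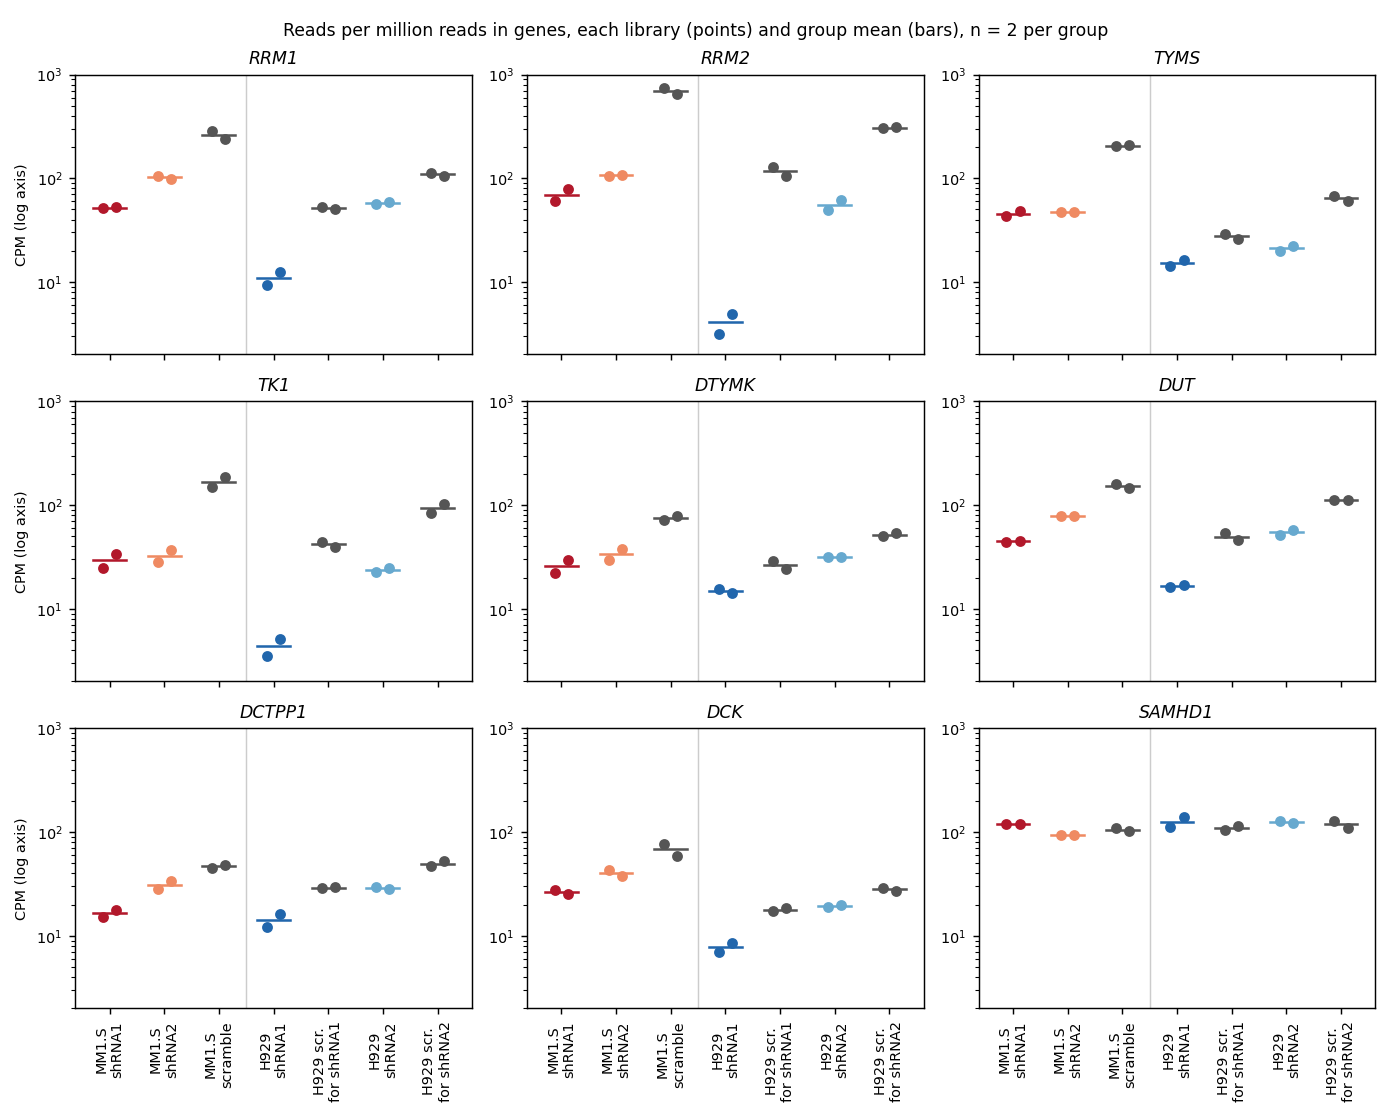
CPM (log axis) of each of the 9 genes in each library (points, n = 2 per group) with the group mean (bars), MM1.S left and H929 right of the grey line. Knockdown libraries lie below those of their own scramble group for the same 8 genes in every comparison, and the 2 H929 scramble groups differ from each other. SAMHD1 stays between 94.3 and 141 CPM, and with MM1.S shRNA2 it too lies below scramble. The share of all genes that separate in this way was not counted, and with 2 libraries per group the separation is a description only.

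Promoter windows are shown for the 2 reductase subunits, for TK1 and for SAMHD1, the gene that did not follow the others. The windows are the 250 bases before an annotated start (RefSeq, GRCh38.p14), read 5′ to 3′ on the gene's strand. All 9 genes matched, with 14 windows. The starts of the windows shown lie 124 (RRM1), 9 (RRM2), 181 (TK1) and 193 (SAMHD1) bases from the principal start in GENCODE. For TK1 and SAMHD1 most of the window, with all marked letters, lies after that principal start, inside the gene. Capitals mark the letters of 3 motifs, searched on both strands: E2F (any of TTCCCGC and also TTGGCGC and also TTCGCGC and also TTGCCGC), CHR (either TTTGAA or else TTCGAA) and CCAAT. RRM2 and TK1 have 2 windows each. For RRM2 the one nearest its principal start is shown, and for TK1 the other one, chosen because it holds matches. The TK1 window nearest its principal start holds no match of the 3 motifs. In the 4 windows shown no match overlaps another.
RRM1, chr11:4094435-4094684, plus strand: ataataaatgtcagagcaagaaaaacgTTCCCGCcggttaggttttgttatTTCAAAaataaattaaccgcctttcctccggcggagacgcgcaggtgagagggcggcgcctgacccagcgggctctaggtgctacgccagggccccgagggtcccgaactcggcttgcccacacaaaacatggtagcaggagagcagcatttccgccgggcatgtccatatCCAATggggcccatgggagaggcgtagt
RRM2, chr2:10122489-10122738, plus strand: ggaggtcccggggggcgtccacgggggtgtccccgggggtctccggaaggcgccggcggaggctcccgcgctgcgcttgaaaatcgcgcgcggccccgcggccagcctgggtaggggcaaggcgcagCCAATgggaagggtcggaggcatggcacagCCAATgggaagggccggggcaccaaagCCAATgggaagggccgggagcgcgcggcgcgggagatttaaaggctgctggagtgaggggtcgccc
TK1, chr17:78187053-78187302, minus strand: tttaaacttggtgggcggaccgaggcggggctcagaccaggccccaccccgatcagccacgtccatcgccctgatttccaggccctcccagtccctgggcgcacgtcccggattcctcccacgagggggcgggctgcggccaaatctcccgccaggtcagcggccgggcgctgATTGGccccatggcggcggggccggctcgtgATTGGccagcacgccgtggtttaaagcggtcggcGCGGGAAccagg
SAMHD1, chr20:36951709-36951958, minus strand: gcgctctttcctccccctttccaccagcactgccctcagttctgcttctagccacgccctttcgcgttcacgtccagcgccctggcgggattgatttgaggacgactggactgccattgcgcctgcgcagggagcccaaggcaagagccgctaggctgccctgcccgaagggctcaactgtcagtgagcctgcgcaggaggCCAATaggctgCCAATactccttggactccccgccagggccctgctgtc

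RRM1 holds 1 match of each motif, RRM2 3 CCAAT matches in this window, and TK1 1 E2F match and 2 CCAAT matches on the opposite strand. SAMHD1 holds 2 CCAAT matches and no E2F match in its window, and the bases further upstream of its principal start were not searched. Counting any window of a gene, 6 of the 9 genes hold an E2F match (DCK, DUT, RRM1, RRM2, TK1 and TYMS), where 13.0% of 27305 genes do. The windows that give DUT, TK1 and RRM2 their E2F match start 774, 181 and 162 bases from the principal start. For CHR it is 3 of 9 (DTYMK, DUT and RRM1) where 17.2% of genes do, for CCAAT 5 of 9 where 37.0% do, and for the GC box (GGGCGG) 7 of 9 where 46.2% do. In the window nearest the principal start, only 3 of the 9 hold an E2F match (RRM1, TYMS and DCK), where 10.9% of 35116 windows do. CHR, CCAAT and the GC box match there in 2, 4 and 6 of the 9, where 14.3%, 32.0% and 42.6% of windows do. A match describes the letters and is not evidence of a bound site.

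The reductase subunits fell unequally, the small one further. RRM2 (ENSG00000171848, GRCh38 chromosome 2, 10120698 to 10131419, plus strand) stood at 60.5 and 78.4 CPM in the MM1.S shRNA1 libraries, at 106 and 108 CPM with shRNA2, and at 736 and 653 CPM with scramble. Every knockdown library was below both scramble libraries, and shRNA1 below shRNA2. The log2 fold changes were -3.44 ± 0.17 (SE; edgeR adjusted p = 3.4e-05) with shRNA1 and -2.81 ± 0.17 (edgeR adjusted p = 3.5e-05) with shRNA2, which left 10.0% and 15.4% of the scramble mean. In H929, RRM2 stood at 3.17 and 4.96 CPM with shRNA1, from 58 and 79 reads, and at 129 and 104 CPM in its scramble. It was the lowest of the 9 genes there, at 3.49% of its scramble mean (-5.00 ± 0.16, limma adjusted p = 2.6e-12). H929 shRNA2 gave 49.2 and 61.8 CPM, against 305 and 309 CPM in its scramble (-2.63 ± 0.16, limma adjusted p = 5.0e-09). Exons of RRM2 share 20.2% of their length with a gene annotated on the same strand (AC007240.1, not analysed here), and its 3 annotated pseudogenes drew at most 10.2% of the reads of the pair.

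RRM1 (ENSG00000167325, chromosome 11, 4094707 to 4138876, plus strand), the large subunit that carries the catalytic site, was at 51.3 and 52.9 CPM with MM1.S shRNA1, 105 and 98.5 CPM with shRNA2, and 283 and 240 CPM with scramble. H929 libraries held 9.39 and 12.4 CPM with shRNA1, against 52.7 and 50.6 CPM in its scramble, and 56.0 and 59.4 CPM with shRNA2, against 112 and 106 CPM in its scramble. The groups did not overlap in any of the 4 comparisons. H929 shRNA2 and the scramble group of the other hairpin were close to each other. RRM1 fell by 2.45 and 1.47 on the log2 scale in MM1.S (SE 0.14 and 0.13; edgeR adjusted p = 3.5e-05 and 1.7e-04) and by 2.41 and 1.08 in H929 (SE 0.11 each; limma adjusted p = 1.0e-10 and 1.4e-06).

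The alternative small subunit moved the other way. RRM2B averaged 42.9 ± 6.65 CPM with MM1.S shRNA1, 35.5 ± 5.06 CPM with shRNA2 and 17.1 ± 0.478 CPM with scramble (SD, n = 2). It was higher with both hairpins, by 1.21 ± 0.16 and 0.94 ± 0.16 (edgeR adjusted p = 8.4e-04 and 0.00274). In H929 it averaged 126 ± 10.3 CPM with shRNA1 and 95.6 ± 0.406 CPM in its scramble (0.24 ± 0.09, limma adjusted p = 0.0431), and 114 ± 4.84 CPM with shRNA2 and 70.2 ± 9.95 CPM in its scramble (0.55 ± 0.09, limma adjusted p = 2.1e-04). The H929 shRNA1 call was lost under 5 alternatives other than leaving out a library. Among them were DESeq2 (adjusted p = 0.0625), TMM scaling (adjusted p = 0.0654), no filter (adjusted p = 0.107) and the replicate number as a block (limma adjusted p = 0.0517). That call was also lost without any 1 of 5 libraries: replicate 2 of shRNA1, either library of its scramble or either library of shRNA2. The shRNA1 effect on RRM2B was larger in MM1.S than in H929 by 0.95 ± 0.18 (limma adjusted p = 0.00209), and for shRNA2 the difference was 0.41 ± 0.18 (limma adjusted p = 0.172, and 0.0457 with the replicate number as a block within line).

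Log2 ratios of transcripts within a library show the same imbalance. RRM2 to RRM1 averaged 0.40 and 0.07 in MM1.S shRNA1 and shRNA2, against 1.41 with scramble; in H929 it was -1.43 with shRNA1 against 1.16 in its scramble, and -0.06 with shRNA2 against 1.50 in its scramble. The mean difference, knockdown minus scramble over both lines, was -1.63 (exact permutation test within lines, two-sided, n = 14 libraries, p = 9.5e-04, adjusted over 4 ratios p = 9.5e-04). That is the smallest p that the 1050 labelings can give. The test shuffles single libraries within a line, though they form groups of 2 and the 2 H929 scramble groups stood apart. Its p thus takes the libraries of a group as independent. RRM2 to RRM2B differed by -4.20 with the same exact permutation p. Its group mean was lowest in H929 shRNA1, at -4.96 against 0.28 in its scramble, and was -1.05 in H929 shRNA2 against 2.13 in its scramble. In MM1.S it was 0.70 and 1.60 with shRNA1 and shRNA2, against 5.34 with scramble. These ratios are of reads, not corrected for transcript length, and compare a pair only across libraries.

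**Figure D2:**
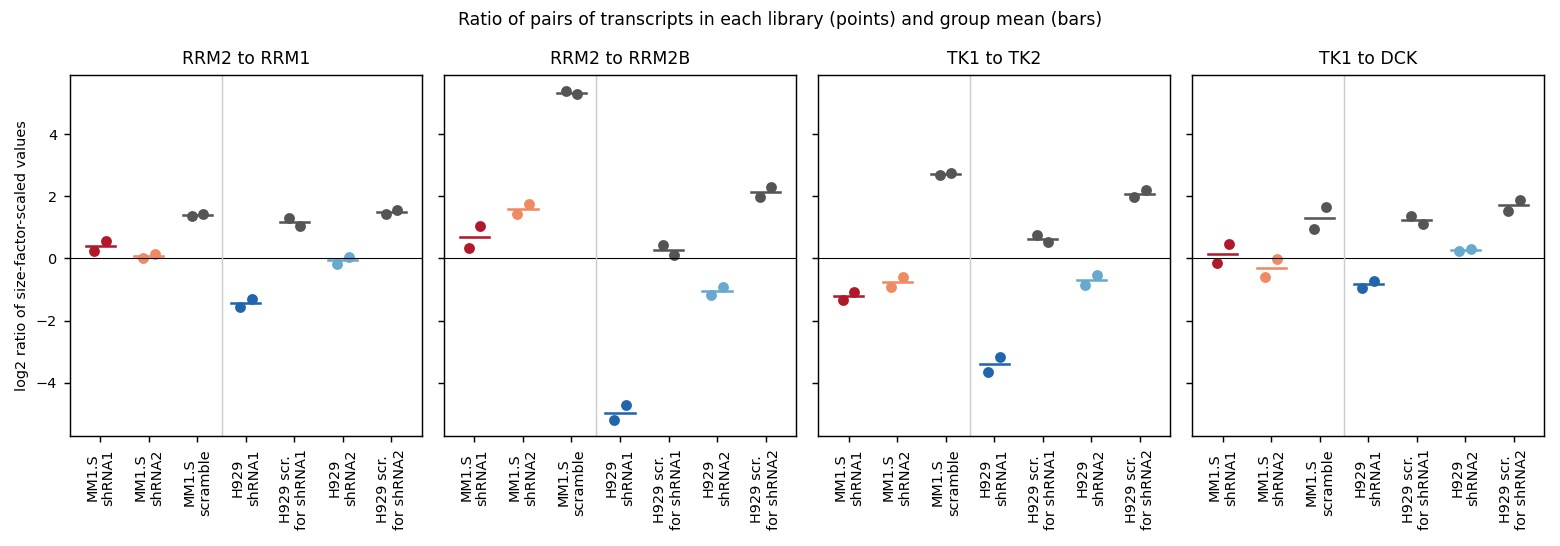
Log2 ratio of 2 genes' size-factor-scaled values (pseudocount 1) in each library (points) with the group mean (bars). In each panel every knockdown library lies below all scramble libraries that belong to the same hairpin and line, and RRM2 to RRM2B covers the widest range, with group means between 5.34 (MM1.S scramble) and -4.96 (H929 shRNA1).

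Transcripts of TYMS, TK1 and DTYMK fell in each comparison, and that of the mitochondrial TK2 was higher. TYMS (ENSG00000176890, chromosome 18, 657604 to 673578, plus strand), which methylates dUMP to dTMP, was at 43.0 and 47.9 CPM in MM1.S shRNA1, 47.0 and 47.2 CPM in shRNA2, and 205 and 207 CPM with scramble. The hairpins were level with each other there, far under the scramble libraries (-2.30 ± 0.12 and -2.23 ± 0.12, edgeR adjusted p = 3.5e-05 and 2.7e-05). In H929 it was at 14.1 and 16.3 CPM with shRNA1, against 28.7 and 26.2 CPM in its scramble (-1.01 ± 0.11, limma adjusted p = 1.2e-06). With H929 shRNA2 it was at 19.8 and 22.4 CPM, against 67.3 and 61.0 CPM in its scramble (-1.76 ± 0.11, limma adjusted p = 9.3e-09). With each H929 hairpin set against its own scramble, only TYMS of the 9 fell further with shRNA2 by the test (difference -0.75 ± 0.16, limma adjusted p = 0.00113). Against both H929 scramble groups together the order turned, with TYMS at -1.68 ± 0.10 for shRNA1 and -1.09 ± 0.10 for shRNA2. Its exons share 39.1% of their length with ENOSF1 on the opposite strand, and the labels do not say whether the libraries keep the strand. ENOSF1, looked at after the overlap was seen, had 46.1 to 94.7 CPM and rose by 0.68 ± 0.10 with H929 shRNA1 (limma adjusted p = 2.1e-05), so reads of the pair cannot be told apart.

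TK1 (ENSG00000167900, chromosome 17, 78174075 to 78187233, minus strand), the cytosolic thymidine kinase that is made around S phase, was at 24.7 and 34.2 CPM in MM1.S shRNA1, 28.2 and 36.9 CPM in shRNA2, and 150 and 186 CPM with scramble. The hairpin groups overlapped each other and lay below scramble (-2.63 ± 0.22 and -2.46 ± 0.22, edgeR adjusted p = 1.3e-04 and 1.7e-04). H929 libraries had 3.55 and 5.15 CPM with shRNA1, from 65 and 82 reads, against 44.2 and 39.4 CPM in its scramble. TK1 thus fell by 3.42 ± 0.15 (limma adjusted p = 5.7e-11), second to RRM2 in that comparison. With H929 shRNA2 it stood at 22.5 and 24.6 CPM, against 84.0 and 102 CPM in its scramble (-2.13 ± 0.15, limma adjusted p = 2.5e-08).

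Its mitochondrial counterpart was higher in every knockdown group. TK2 averaged 67.6 ± 7.32 and 54.9 ± 2.08 CPM in MM1.S shRNA1 and shRNA2 and 25.2 ± 3.20 CPM with scramble (1.31 ± 0.15 and 1.02 ± 0.15, edgeR adjusted p = 4.6e-04 and 0.00146). In H929 it averaged 46.1 ± 0.761 CPM with shRNA1 and 26.9 ± 0.542 CPM in its scramble (0.62 ± 0.11, limma adjusted p = 1.5e-04), and 38.4 ± 3.58 CPM with shRNA2 and 21.7 ± 0.661 CPM in its scramble (0.66 ± 0.11, limma adjusted p = 1.3e-04). The log2 ratio TK1 to TK2 differed by -3.57 and TK1 to DCK by -1.57 between knockdown and scramble (exact permutation test, two-sided, n = 14 libraries, p = 9.5e-04 and adjusted p = 9.5e-04 for each). Libraries of a group were again taken as independent. Group means of TK1 to TK2 were -1.22 and -0.76 in MM1.S shRNA1 and shRNA2 against 2.72 with scramble, -3.41 in H929 shRNA1 against 0.64, and -0.70 in H929 shRNA2 against 2.08. The other mitochondrial deoxynucleoside kinase, DGUOK, was lower in 1 comparison, H929 shRNA1 (-0.64 ± 0.12, limma adjusted p = 3.1e-04); with MM1.S shRNA1 its value was -0.40 ± 0.14 (edgeR adjusted p = 0.0532, and 7.7e-04 with the replicate number as a block).

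DTYMK (ENSG00000168393, chromosome 2, 241675742 to 241686991, minus strand) phosphorylates dTMP from either route. It had 22.3 and 29.4 CPM in MM1.S shRNA1, 29.8 and 38.2 CPM in shRNA2, and 71.3 and 78.9 CPM with scramble (-1.66 ± 0.19 and -1.24 ± 0.19, edgeR adjusted p = 5.4e-04 and 0.00191). In H929 it had 15.5 and 14.1 CPM with shRNA1, against 28.7 and 24.5 CPM, and 31.8 and 32.0 CPM with shRNA2, against 50.1 and 53.5 CPM. Both falls, of 1.00 ± 0.11 and 0.85 ± 0.11 on the log2 scale, passed (limma adjusted p = 2.0e-06 and 2.0e-05). They were smaller than those of RRM2 and TK1 in the same libraries.

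DUT and DCTPP1 remove nucleotides that should not enter DNA. DUT (ENSG00000128951, chromosome 15, 48331011 to 48343373, plus strand), which hydrolyses dUTP to the TYMS substrate dUMP, was at 44.6 and 45.6 CPM in MM1.S shRNA1, 78.5 and 78.4 CPM in shRNA2, and 161 and 147 CPM with scramble. The 3 groups did not overlap (-1.89 ± 0.12 and -1.08 ± 0.12, edgeR adjusted p = 4.7e-05 and 4.5e-04). H929 DUT was at 16.4 and 17.1 CPM with shRNA1, against 53.7 and 45.9 CPM in its scramble, and at 52.0 and 57.7 CPM with shRNA2, against 112 and 111 CPM in its scramble (-1.72 ± 0.10 and -1.19 ± 0.10, limma adjusted p = 8.6e-10 and 1.5e-07). Its 8 annotated pseudogenes drew at most 7.77% of the reads of the pair.

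DCTPP1 (ENSG00000179958, chromosome 16, 30423619 to 30430075, minus strand), a pyrophosphatase of dCTP and its modified forms, was at 15.3 and 17.7 CPM in MM1.S shRNA1, 28.6 and 33.5 CPM in shRNA2, and 45.4 and 48.1 CPM with scramble (-1.62 ± 0.16 and -0.69 ± 0.15, edgeR adjusted p = 2.2e-04 and 0.00920). Without replicate 1 of MM1.S shRNA2 the second call was lost (-0.55, edgeR adjusted p = 0.0922, the lone library being assumed to vary like the other groups). In H929 it was at 12.2 and 16.1 CPM with shRNA1, against 29.0 and 29.4 CPM, and at 29.3 and 28.1 CPM with shRNA2, against 47.0 and 52.6 CPM (-1.21 ± 0.13 and -0.95 ± 0.13, limma adjusted p = 6.6e-07 and 1.8e-05). Its exons share 42.1% of their length with ZNF771 on the opposite strand, which had 2.95 to 6.75 CPM.

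DCK (ENSG00000156136, chromosome 4, 70992538 to 71030914, plus strand), the salvage kinase for deoxycytidine that also activates cytarabine and gemcitabine, fell least of the 8 in 2 of the 4 comparisons, MM1.S shRNA1 and H929 shRNA2. It had 27.5 and 25.1 CPM in MM1.S shRNA1, 42.9 and 37.4 CPM in shRNA2, and 77.6 and 58.6 CPM with scramble (-1.49 ± 0.17 and -0.87 ± 0.16, edgeR adjusted p = 4.6e-04 and 0.00516). H929 libraries had 6.99 and 8.54 CPM with shRNA1, against 17.3 and 18.4 CPM, and 19.1 and 20.0 CPM with shRNA2, against 29.0 and 27.3 CPM (-1.36 ± 0.13 and -0.68 ± 0.13, limma adjusted p = 2.0e-07 and 4.4e-04). No group overlapped its scramble.

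SAMHD1 (ENSG00000101347, chromosome 20, 36889773 to 36951901, minus strand), a triphosphohydrolase that degrades dNTPs and restricts retroviruses in non-dividing cells, was not called in any of the 4 comparisons. It stood at 121 and 120 CPM in MM1.S shRNA1, 94.3 and 94.9 CPM in shRNA2, and 109 and 103 CPM with scramble. Here shRNA1 lay above and shRNA2 below the scramble libraries, each without overlap and by little (0.07 ± 0.11 and -0.27 ± 0.11, edgeR adjusted p = 0.667 and 0.0939). With the replicate number as a block the shRNA2 value passed (-0.27, edgeR adjusted p = 0.00228), and the authors' deposited table gives it as -0.25 with an adjusted p of 0.00642. In H929 the libraries overlapped, at 112 and 141 CPM with shRNA1, against 106 and 114 CPM, and at 127 and 122 CPM with shRNA2, against 129 and 109 CPM (0.03 ± 0.10 and -0.08 ± 0.10, limma adjusted p = 0.809 and 0.555).

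**Figure D3:**
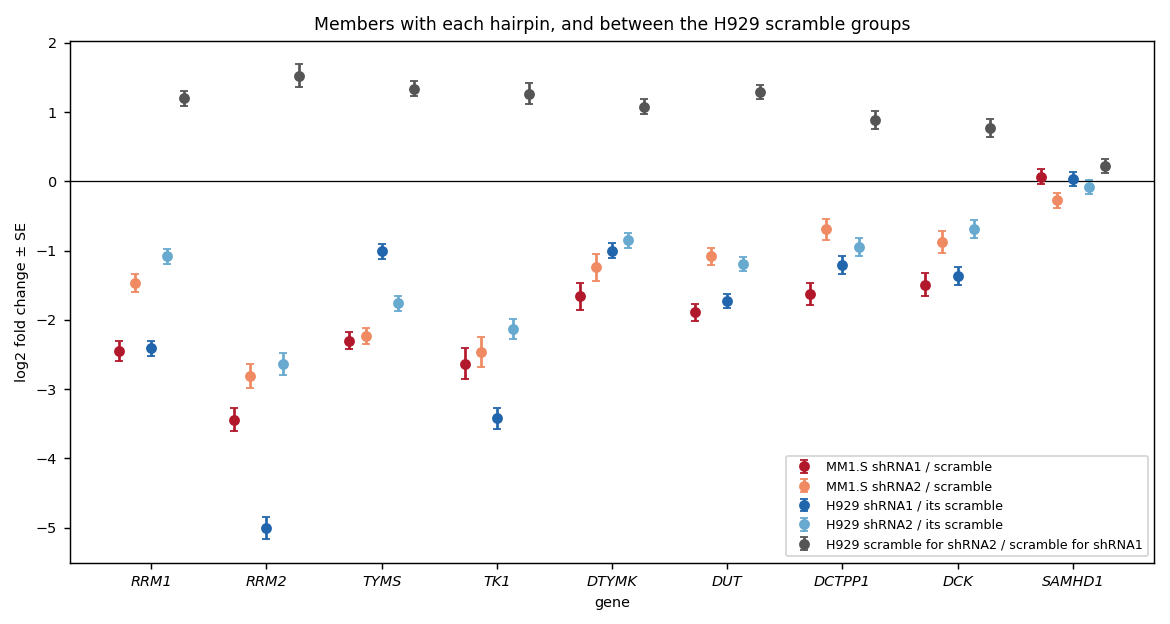
Log2 fold change ± SE of each gene for the 4 hairpin comparisons (coloured) and for the H929 scramble for shRNA2 over the scramble for shRNA1 (grey). The coloured points of 8 genes lie between -0.68 and -5.00, the grey points of the same genes between 0.77 and 1.53, and SAMHD1 near 0 in each.

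Set per kb of exon, the order of the genes differed between groups. The length used joins all annotated exons of a gene and is not that of 1 transcript, so ranks between genes depend on it. It was 11261 bases for SAMHD1, 5323 for RRM2 and 1861 for TK1. With scramble RRM2 led in MM1.S at 130 CPM per kb, followed by TK1 at 90.1 and TYMS at 83.5 CPM per kb, whose libraries overlapped each other, and SAMHD1 was last at 9.44 CPM per kb. In MM1.S shRNA1 the range narrowed to between 18.4 CPM per kb for TYMS and 8.14 CPM per kb for DCK, and TYMS, TK1, RRM2, RRM1 and DUT each overlapped the next in that order. With MM1.S shRNA2 it ran between 24.4 CPM per kb for RRM1 and 8.40 CPM per kb for SAMHD1. H929 shRNA1 had the reverse order at its ends: SAMHD1 was first at 11.2 CPM per kb, overlapping DCTPP1 at 8.95, and RRM2 last at 0.763 CPM per kb. In its scramble TK1 and RRM2 led at 22.5 and 21.9 CPM per kb and overlapped, with DCK last at 5.53 CPM per kb. H929 shRNA2 ran between 18.1 CPM per kb for DCTPP1 and 6.06 CPM per kb for DCK, and its scramble between 57.7 CPM per kb for RRM2 and 8.72 CPM per kb for DCK.

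The hairpins differed in depth. In MM1.S, 5 genes were higher with shRNA2 than with shRNA1, where 16.4% of all genes were higher and 20.4% lower. These were RRM1 by 0.98 ± 0.13, DCTPP1 by 0.93 ± 0.15, DUT by 0.81 ± 0.12, RRM2 by 0.63 ± 0.16 and DCK by 0.62 ± 0.17 (edgeR adjusted p between 0.00120 and 0.0217). SAMHD1 was lower with shRNA2, by -0.34 ± 0.11 (edgeR adjusted p = 0.0471). That call was lost with DESeq2 (adjusted p = 0.0952), with median-of-ratios scaling (adjusted p = 0.0534), with no filter (adjusted p = 0.143) and without any 1 of the 6 libraries. Leaving out any 1 of the 4 hairpin libraries ended the call of DCK, and leaving out replicate 1 of shRNA1 or either library of shRNA2 that of RRM2. TYMS and TK1 did not pass (0.07 ± 0.12 and 0.16 ± 0.21, edgeR adjusted p = 0.707 and 0.590). DTYMK, at 0.41 ± 0.19 (edgeR adjusted p = 0.128), passed with the replicate block (adjusted p = 0.00195).

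In H929 the hairpins were compared through their own scramble groups. The fall was smaller with shRNA2 for RRM2 (2.37 ± 0.22), RRM1 (1.34 ± 0.16), TK1 (1.30 ± 0.21), DCK (0.68 ± 0.18) and DUT (0.53 ± 0.14), and larger for TYMS (limma adjusted p between 5.3e-07 and 0.00642). That makes 5 genes higher and 1 lower, where 20.0% and 21.9% of all genes were. The order for TYMS turned with the reference. Against both scramble groups together TYMS was at -1.68 ± 0.10 with shRNA1 and -1.09 ± 0.10 with shRNA2. DTYMK, DCTPP1 and SAMHD1 did not pass (0.14 ± 0.16, 0.26 ± 0.18 and -0.11 ± 0.15, limma adjusted p = 0.507, 0.254 and 0.566).

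The H929 scramble groups differed from each other in the same 8 genes. The scramble for shRNA2 was higher than the scramble for shRNA1 by 1.53 ± 0.16 for RRM2, 1.34 ± 0.11 for TYMS, 1.29 ± 0.10 for DUT, 1.27 ± 0.15 for TK1, 1.20 ± 0.11 for RRM1, 1.08 ± 0.11 for DTYMK, 0.89 ± 0.13 for DCTPP1 and 0.77 ± 0.13 for DCK (limma adjusted p between 6.4e-07 and 3.0e-04). SAMHD1 differed by 0.22 ± 0.10 (limma adjusted p = 0.122). Of all genes, 16.8% were higher and 13.1% lower between these groups. RRM2 in the scramble for shRNA1 was thus at 37.9% of its mean in the scramble for shRNA2. Of the 14 replication fork genes listed for comparison (the MCM2 to MCM7 and GINS subunits, CDC45, CDC6, CDT1 and PCNA), 14 were higher in the scramble for shRNA2, with a median of 1.47.

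Which scramble group an H929 hairpin is set against decided most of the shRNA2 calls; this was tried after the data were seen. Against the scramble for shRNA1, shRNA2 cells were lower in 3 of the 9 genes, RRM2 (-1.11 ± 0.16, limma adjusted p = 4.5e-05), TK1 (-0.86 ± 0.15, adjusted p = 2.9e-04) and TYMS (-0.42 ± 0.11, adjusted p = 0.00716), where 21.9% of all genes were lower. RRM1, DTYMK, DUT and DCK had positive values of 0.12, 0.23, 0.10 and 0.09 there (limma adjusted p = 0.421, 0.123, 0.443 and 0.599), and DCTPP1 -0.06 (limma adjusted p = 0.728). Against both scramble groups together 8 of 9 were lower again, between -1.87 ± 0.13 for RRM2 and -0.29 ± 0.11 for DCK (limma adjusted p at most 0.0397), where 25.1% of all genes were. H929 shRNA1 was lower in the same 8 genes against the other hairpin's scramble group (32.4% of all genes lower) and against both groups together (32.5%), with RRM2 at -6.53 ± 0.16 against the scramble for shRNA2. TK2 was higher in every case, and RRM2B did not pass for shRNA2 against the scramble for shRNA1 (0.22 ± 0.09, limma adjusted p = 0.0809).

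**Figure D4:**
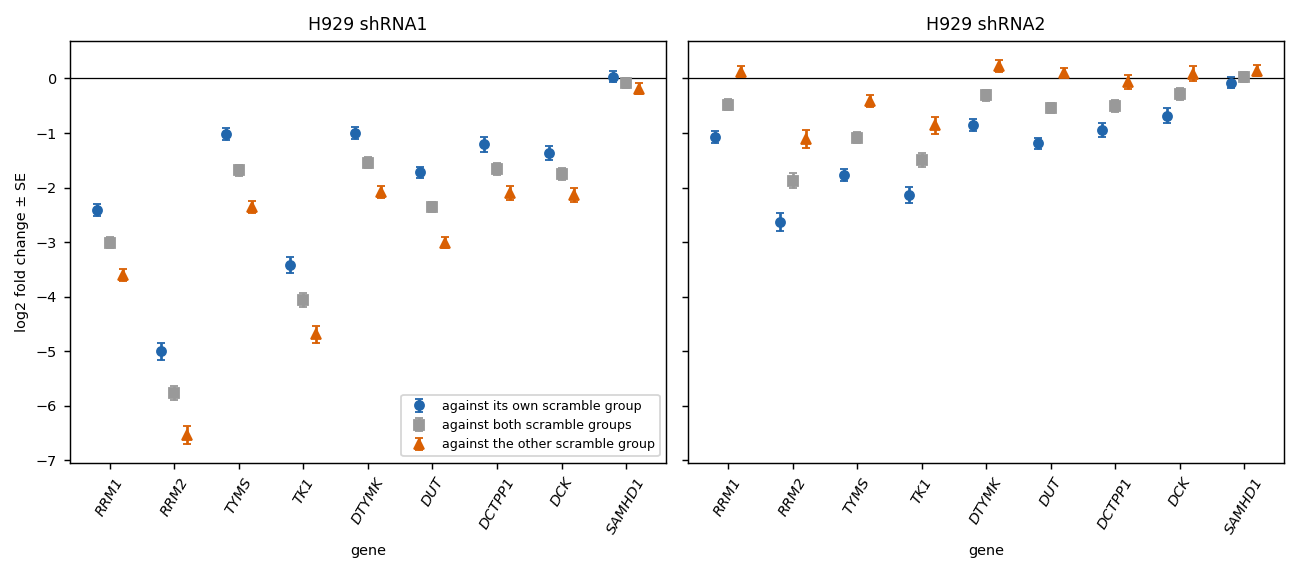
Log2 fold change ± SE of each gene in H929 shRNA1 (left) and shRNA2 (right), set against the hairpin's own scramble group (circles), both scramble groups (squares) or the other hairpin's scramble group (triangles). For shRNA2 the triangles of RRM1, DTYMK, DUT, DCTPP1 and DCK lie between -0.06 and 0.23, and those of RRM2, TK1 and TYMS stay below 0.

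Between the lines, the effect of shRNA1 differed for 3 genes when H929 shRNA1 was set against its own scramble. RRM2 fell less in MM1.S than in H929, by 1.55 ± 0.26 (limma adjusted p = 0.00120), and TYMS fell more in MM1.S, by -1.29 ± 0.15 (limma adjusted p = 8.5e-05). DTYMK also fell more in MM1.S, by -0.67 ± 0.22 (limma adjusted p = 0.0478), a call that was lost with no filter (adjusted p = 0.0963), with a pseudocount of 0.5 (adjusted p = 0.0520) and on leaving out any 1 of the 8 libraries other than replicate 2 of MM1.S shRNA1. Of all genes 10.4% were higher and 11.0% lower in this comparison, against 1 and 2 of the 9. TK1 stood at 0.79 ± 0.29 (limma adjusted p = 0.0689) and passed with the replicate block within line (adjusted p = 0.00482). For shRNA2 no gene of the 9 passed, where 4.34% of all genes were higher and 5.41% lower. Its largest value was TYMS, at -0.45 ± 0.15 (limma adjusted p = 0.0739, with edgeR 0.0341 and with the replicate block 0.0280). Each H929 hairpin enters through its own scramble group, so the gap between those groups bears on both line differences. Set against the scramble for shRNA2, H929 shRNA1 had TYMS at -2.35 ± 0.11 and DTYMK at -2.08 ± 0.11. With MM1.S shRNA1 these were -2.30 ± 0.12 and -1.66 ± 0.19, so neither fell more in MM1.S with that reference. RRM2 was at -6.53 ± 0.16 there and -3.44 ± 0.17 in MM1.S. The line difference was not tested with that reference.

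Neighbouring pathways were followed from lists of other genes. Of 24 genes of nucleotide interconversion, transport and one-carbon supply (RRM2B, TK2 and DGUOK among them), 22 were tested in MM1.S and 24 in H929. The MM1.S hairpins lowered 9 (shRNA1) and 11 (shRNA2) of them, with 4 higher under each. The H929 hairpins lowered 12 (shRNA1) and 15 (shRNA2), with 8 and 4 higher. Medians were -0.42, -0.48, -0.44 and -0.35, where those of all genes were near 0. In the same order 19.7%, 21.7%, 27.7% and 25.0% of all genes were lower and 17.8%, 14.9%, 25.7% and 18.0% higher. The counts of higher genes in this list lie near those shares. SLC29A1, the equilibrative nucleoside transporter that imports thymidine and deoxycytidine, fell by 0.85 ± 0.17 and 2.30 ± 0.18 in MM1.S (shRNA1 and shRNA2) and by 0.71 ± 0.11 and 1.78 ± 0.11 in H929. SHMT1, which feeds one-carbon units to TYMS, fell by 1.78 ± 0.14, 1.93 ± 0.14, 0.44 ± 0.12 and 1.39 ± 0.12 in the same order.

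Of 11 nucleotidases and pool-cleaning enzymes, 3, 6, 4 and 5 fell and 2, 0, 2 and 0 rose (MM1.S shRNA1 and shRNA2, H929 shRNA1 and shRNA2), with medians of -0.05, -0.58, -0.23 and -0.29. Of all genes, 19.7%, 21.7%, 27.7% and 25.0% were lower and 17.8%, 14.9%, 25.7% and 18.0% higher in the same order, so the shRNA1 counts of this list lie near those shares. NUDT1, which hydrolyses oxidised purine dNTPs, fell in each comparison, by 1.64 ± 0.25, 1.85 ± 0.25, 1.87 ± 0.20 and 1.23 ± 0.20. NT5E, the cell surface nucleotidase CD73, separated the hairpins. It averaged 22.9 ± 1.78 CPM with MM1.S shRNA1, 3.38 ± 0.0629 CPM with shRNA2 and 5.48 ± 0.491 CPM with scramble, and in H929 75.4 ± 12.3 CPM with shRNA1 and 10.9 ± 0.208 CPM in its scramble, 10.8 ± 0.743 CPM with shRNA2 and 9.59 ± 0.681 CPM in its scramble. It was lower with shRNA2 than with shRNA1 by -2.74 ± 0.17 in MM1.S (edgeR adjusted p = 8.1e-05) and by -2.60 ± 0.19 in H929 (limma adjusted p = 4.5e-08). NT5C1A, a cytosolic nucleotidase, had few reads, 57 and 70 in MM1.S shRNA1 against 6 and 8 with scramble, and 27 and 12 in H929 shRNA1 against 2 and 0 in its scramble. Its H929 shRNA1 call was lost with DESeq2 (adjusted p = 0.518).

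Pyrimidine synthesis and uridine salvage fell in 6, 4, 2 and 4 of 8 genes in the same order, with none higher and medians of -0.55, -0.41, -0.25 and -0.44. The 2 of 8 with H929 shRNA1 are no larger a share than the 27.7% of all genes that were lower there. CTPS1, which makes CTP, fell in each (1.59 ± 0.12, 1.22 ± 0.12, 1.39 ± 0.09 and 0.97 ± 0.09), as did CAD, the enzyme of the first 3 steps of the pathway (0.55 ± 0.13, 0.49 ± 0.13, 0.65 ± 0.10 and 0.76 ± 0.10). UCK2, a uridine kinase, fell in 3 of the 4 and was at -0.11 ± 0.08 with H929 shRNA1. Purine synthesis and salvage fell in 11 and 8 of 14 genes tested in MM1.S and in 12 and 13 of 15 in H929. Lower among all genes were 19.7%, 21.7%, 27.7% and 25.0% in the same order. With H929 shRNA1, 2 genes of this list (ADSS and ADSSL1) rose, where 25.7% of all genes did. The list medians were -0.80, -0.81, -0.35 and -0.60. PRPS2, which makes the ribose donor, fell by 1.68 ± 0.14, 1.26 ± 0.13, 0.77 ± 0.11 and 0.90 ± 0.11. PFAS and PAICS, enzymes of the purine ring, fell in all 4 as well, by 1.39, 1.01, 0.78 and 1.00 and by 0.97, 0.81, 0.63 and 1.17. Of the 4 genes that reduce the reductase after each cycle, TXN (thioredoxin) fell in all 4 comparisons (0.72 ± 0.12, 0.39 ± 0.12, 0.48 ± 0.09 and 0.92 ± 0.09). The MM1.S shRNA2 call of TXN (adjusted p = 0.0327) did not pass with limma on log2(CPM + 1) (adjusted p = 0.0812), with no filter (adjusted p = 0.0728), or without any 1 library other than replicate 2 of the scramble. TXNRD1, thioredoxin reductase, was lower with MM1.S shRNA1 (-0.47 ± 0.13), higher with MM1.S shRNA2 (0.58 ± 0.13) and lower with H929 shRNA2 (-0.26 ± 0.08); GLRX, a glutaredoxin, was lower with shRNA2 in both lines (-1.27 ± 0.12 and -0.31 ± 0.11) and stood at -0.20 ± 0.12 with MM1.S shRNA1 (edgeR adjusted p = 0.216, and 0.0236 with the replicate block). The calls of TXNRD1 and the H929 call of GLRX were each lost without at least 1 library, and that of GLRX also with DESeq2 (adjusted p = 0.0611).

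Some calls of these lists rested on 1 library or on the choice of scramble. CAD did not pass with MM1.S shRNA1 without its replicate 1 (-0.42, edgeR adjusted p = 0.127) or without replicate 2 of the scramble (-0.49, adjusted p = 0.0546). With MM1.S shRNA2 it did not pass without either hairpin library or replicate 2 of the scramble (edgeR adjusted p between 0.0555 and 0.186). UCK2 with MM1.S shRNA1 needed replicate 1 of that hairpin (adjusted p = 0.0988 without it), and CDT1 with MM1.S shRNA2 needed replicate 1 of its own (-1.17, adjusted p = 0.0903 without it). Set against the scramble for shRNA1, H929 shRNA2 did not pass for NUDT1 (-0.19), CAD (-0.21), PRPS2 (-0.00), PFAS (-0.08), PAICS (-0.09) or TXN (-0.24), at limma adjusted p between 0.0591 and 0.993. TXNRD1 was at 0.09 there (limma adjusted p = 0.429).

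A further list held genes that control the 9 genes or their products. Of 13, 10 fell with each MM1.S hairpin, 8 with H929 shRNA1, where E2F3 and WEE1 rose, and 12 with H929 shRNA2 (medians -1.76, -1.75, -0.55 and -1.39). The shares of all genes lower were 19.7% and 21.7% in MM1.S (shRNA1 and shRNA2) and 27.7% and 25.0% in H929. E2F1 and E2F2 are activating E2F factors; E2F2 fell by 2.75 ± 0.24, 2.59 ± 0.23, 2.63 ± 0.17 and 1.88 ± 0.17. CDK1 and CCNA2, kinase and cyclin of the later cell cycle, which phosphorylate RRM2 and SAMHD1, fell by 2.90, 3.56, 3.48 and 2.70 and by 2.69, 2.62, 2.83 and 1.95. CCNF, the F-box protein that marks RRM2 for destruction, fell as well, by 3.12 ± 0.18, 2.78 ± 0.17, 1.05 ± 0.10 and 1.39 ± 0.10. The replication fork genes fell in 14 of 14 in each comparison, with medians of -2.45, -2.01, -2.28 and -1.80. CDC45, GINS2 and CDT1, parts of the helicase and its loader, fell by 2.72, 2.89 and 2.84 with MM1.S shRNA1, by 2.62, 2.33 and 1.50 with MM1.S shRNA2, by 4.11, 3.52 and 4.41 with H929 shRNA1 and by 2.66, 2.54 and 1.60 with H929 shRNA2. All of these share the scramble libraries with the 9 genes.

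**Figure D5:**
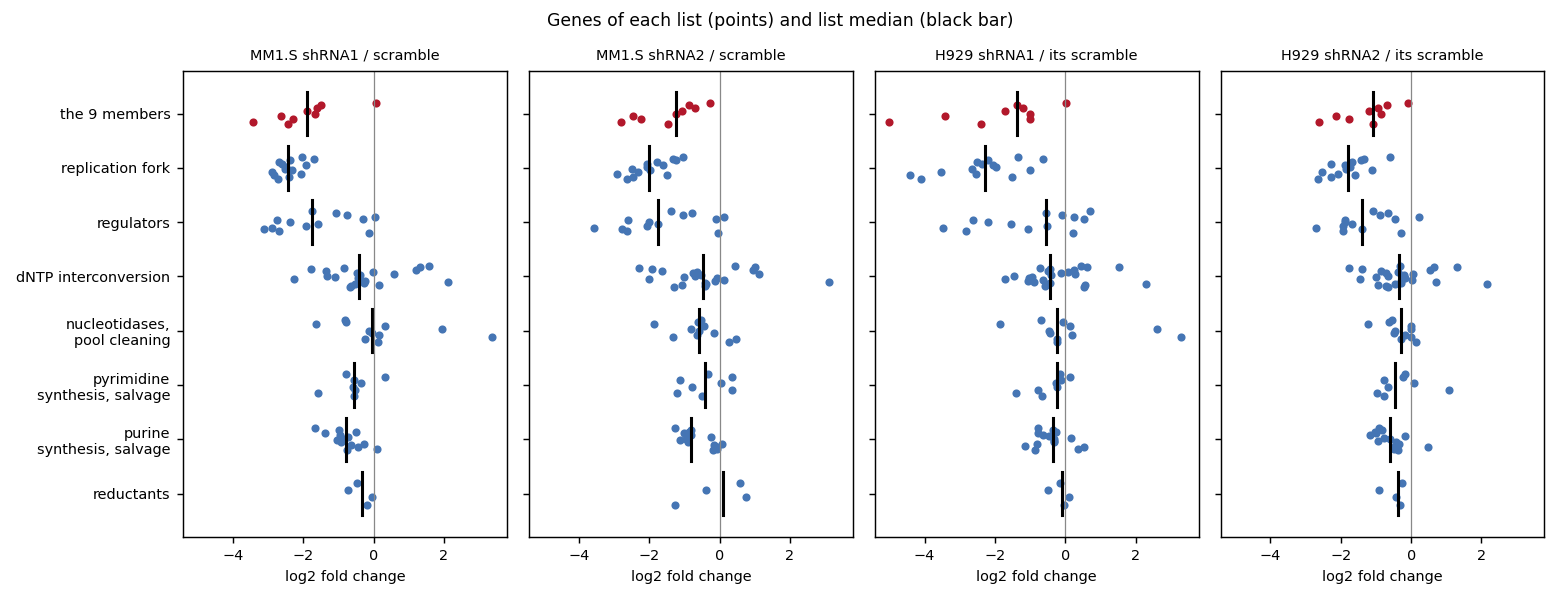
Log2 fold change of each tested gene of 8 lists (points, spread vertically for legibility) with the list median (black bar), one panel per hairpin comparison and 1 common axis. The replication fork genes have the lowest median in each panel, between -2.45 and -1.80, the 9 genes lie between -1.89 and -1.08, and the reductants between -0.37 and 0.10.

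Profiles over all 14 libraries, each line centred on its scramble mean, were compared with RRM2 and with SAMHD1 among 9802 genes with at least 5 CPM in each line. The genes closest to RRM2, by root-mean-square distance on the log2 scale, were UHRF1 (0.313), MCM10 (0.325), UBE2C (0.380), EXO1 (0.392) and CDC45 (0.429), where the median gene was at 2.82. TK1 ranked 48th at 0.755 and RRM1 136th at 1.34, while RRM2B ranked 9193rd at 3.40 and TK2 9445th at 3.52. Closest to SAMHD1 were SPOP (0.108), MAP2K1 (0.112), COX19 (0.113), ZNF37BP (0.113) and DCAF12 (0.115), where the median gene was at 0.428. RRM2 was the furthest of all from SAMHD1, at 2.82. The SAMHD1 profile itself had a root-mean-square of 0.14, the distance at which a gene without any change would lie. Its closest genes are thus little nearer than a flat profile and need not share a pattern with it. All genes of a profile come from the same 14 libraries, so these distances are a description and no test was made.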

How the data were processed

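Poly(A) RNA of 14 libraries was sequenced. Per the submitters' processing notes, STAR 2.5.3a and DESeq2 1.24.0 were used with GRCh38 (hg38); the counter, annotation and strandedness are not given in the sources used here. For MM1.S the authors deposited raw read counts, per the file headers. The deposited H929 table has the same name, yet its values are a signal: read counts over a size factor for each library (100% of values are whole within 0.01 once multiplied back). CPM in H929 come from these recovered reads. Tables of log2 fold changes and adjusted p-values were also deposited. By elimination, the remaining columns were given to shRNA2 and to replicate 2 of the scramble for shRNA1 in H929.

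Of 58069 genes, 18 repeated identifiers were left out. MM1.S was tested with edgeR 4.0.16 (quasi-likelihood F test, TMM, filterByExpr minimum count 10; 17820 genes, 6 libraries) in R 4.3.3, and H929 with limma 3.58.1 (trend, log2 of value plus 1, genes reaching 10 in 2 or more libraries; 18213 genes, 8 libraries). Line differences used limma on size-factor-scaled values of 14 libraries (20370 genes). Values from limma are thus on the log2(value + 1) scale. The SE printed with edgeR values was derived as the absolute log2 fold change over the square root of F, while that of limma came from the fit. Benjamini-Hochberg p under 0.05 over all genes was the threshold, and the fits were tested on simulated data. Alternatives were other scalings, DESeq2 1.42.0, filters, pseudocounts, the replicate block and leaving out each library.

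MM1.S libraries with the same number moved together (correlation of deviations from group means 0.499 to 0.769, 11200 genes) which was read as pairing, though the labels do not define these numbers. The fits reported have no replicate block; the blocked p is printed beside a result whose call it changes. In H929 the range was -0.167 to 0.204, and no pairing was assumed. Lengths and positions came from GENCODE release 29. The 9 genes and the lists were chosen with earlier results of these data known. Context genes were named by a rule: a fixed few, and per list up to 3 with the largest mean change among those called the same way in at least 2 comparisons; others named were chosen after their values were seen, and 1 context gene is not reported here.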

Additional observations from a re-analysis of the deposited data

Results flagged for a closer look

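The effect of shRNA1 differed between the lines for 3 of the 9 genes, by a test of the difference itself (limma, 14 libraries): 1 higher and 2 lower, where 10.4% of all genes were higher and 11.0% lower. RRM2 differed by 1.55 ± 0.26 on the log2 scale, MM1.S minus H929 (adjusted p = 0.00120): it was left at 10.0% of scramble in MM1.S and at 3.49% in H929. TYMS differed by -1.29 ± 0.15 (adjusted p = 8.5e-05), left at 22.1% in MM1.S and at 55.4% in H929. DTYMK differed by -0.67 ± 0.22 (adjusted p = 0.0478), left at 34.4% in MM1.S and at 55.7% in H929; that call was lost with no filter (adjusted p = 0.0963), with a pseudocount of 0.5 (adjusted p = 0.0520) and on leaving out any 1 of the 8 libraries other than replicate 2 of MM1.S shRNA1. The H929 values rest on the scramble for shRNA1, in which RRM2, TYMS and DTYMK stood at 37.9%, 42.7% and 51.3% of the scramble for shRNA2. Against the scramble for shRNA2, H929 shRNA1 had TYMS at -2.35 and DTYMK at -2.08, beside -2.30 and -1.66 with MM1.S shRNA1. Neither fell more in MM1.S with that reference, for which the line difference was not tested.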

How the results depend on the processing

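Across all alternatives, the 9 genes kept the side of the threshold in 1103 values, lost the call without turning in 27 and gained it in 9. Direction was compared only where either value was called, and there it turned in another 4, which lost the call as well (limma adjusted p between 0.123 and 0.599). Uncalled values could change sign within the 1103, such as SAMHD1 with H929 shRNA1 (-0.19 to 0.18). The 4 that turned were H929 shRNA2 against the other scramble group, RRM1 0.12, DTYMK 0.23, DUT 0.10 and DCK 0.09, where 3 genes were lower instead of 8; the context gene TXNRD1 (0.09) turned there too. The cause was not tested.

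With the replicate block, genes lower and higher with MM1.S shRNA1 numbered 5513 and 5068 (against 3516 and 3173), genes higher with MM1.S shRNA2 4779 (against 2661) and genes higher with MM1.S shRNA2 against shRNA1 5113 (against 2915). The block within line gave 1922 lower and 1928 higher for the shRNA2 line difference (against 1102 and 885), with 1 of the 9 lower (TYMS), and 2 of the 9 higher for shRNA1. The block ended no call of the 9 genes. In MM1.S shRNA2 against shRNA1, 0 of the 9 were lower with DESeq2, median-of-ratios size factors or no filter, instead of 1. With no filter the H929 scramble comparison had 1569 genes lower (against 2380), and the line differences 1 of the 9 lower for shRNA1 and 703 lower and 498 higher for shRNA2; a pseudocount of 0.5 also left 1 lower for shRNA1. With edgeR the shRNA2 line difference had 558 genes higher and 1 of the 9 lower.

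Restricted to MM1.S, the ratios differed by -1.18 (RRM2 to RRM1), -4.19 (RRM2 to RRM2B), -3.72 (TK1 to TK2) and -1.39 (TK1 to DCK), at an exact permutation p of 0.0667; with shRNA1 alone by -1.80, -4.94, -3.99 and -1.61, and with shRNA2 alone by -1.45, -3.46, -3.14 and -1.53, both at an exact permutation p of 0.0556. These are the smallest p-values those designs allow, and libraries of a group are again taken as independent.

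Leaving out 1 library (a group of 1 was assumed to vary like the others) gave these ranges: MM1.S shRNA1, 2092 to 3307 genes lower; MM1.S shRNA2, 2312 to 3613 lower and 1304 to 2751 higher; MM1.S shRNA2 against shRNA1, 2276 to 3865 lower, 1365 to 3210 higher, and 0 lower and 3 to 5 higher of the 9; H929 shRNA2, 1845 to 3543 higher; the H929 scramble groups, 1265 to 2618 lower and 1905 to 3408 higher; the shRNA1 line difference, 1 to 2 lower and 1 to 2 higher of the 9; and the shRNA2 line difference, 485 to 1049 lower and 324 to 1092 higher. Depth was lowest for RRM2 and TK1 in H929 shRNA1, at 58 to 82 reads per library.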
